A study of Capra hircus with 10 samples.

Results

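The genes described here belong to a set of 15 protein-coding genes of the goat ovary whose isoform make-up differed between the luteal and the follicular phase by a large margin and without overlap of the ovaries. They were chosen by a rule on the transcript table. A gene could be chosen when its symbol had at least 2 protein-coding transcripts and their FPKM (fragments scaled by transcript length and library size) summed to at least 5 in all 10 ovaries. The share of a transcript is its FPKM as a percentage of that sum in the same ovary. A gene was kept when the mean share of at least 1 transcript differed by at least 30 percentage points between the phases and the 5 luteal and 5 follicular shares did not overlap. The rule kept 15 of 4053 genes that it could choose from, or 0.370%, out of 20587 protein-coding symbols in the table. The same shares chose the genes, so they are described below without a test.

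The study sequenced rRNA-depleted total RNA of whole ovaries of Anhui white goats to compare the 2 phases of the estrous cycle, with 5 ovaries labelled luteal phase and 5 labelled follicular phase. The ovaries came from a slaughterhouse, and no agent or allele is stated to separate the groups. The labels do not tie the ovaries to animals, so every p-value below measures only the spread between these 10 ovaries. The deposited tables hold FPKM without read counts, so the depth behind each value is unknown.

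One gene can give rise to several transcripts through alternative promoters, alternative splicing and alternative polyadenylation, and these can encode different proteins or differ only in their untranslated ends. RNA-binding proteins of the SR, hnRNP, muscleblind and RBM families steer which splice form is made. Between the follicular and the luteal phase the ovulated follicle is rebuilt into the corpus luteum, a gland of steroidogenic cells and dense capillaries that secretes progesterone.

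The labelled phases were checked against marker genes, and the summed levels of 3 marker lists did not overlap between the phases. Over all genes tested with limma at an adjusted p of 0.05, 15.9% were called higher and 27.8% lower in the luteal phase. The 7 luteal cell markers in the table summed to 10922 to 13482 FPKM in the luteal ovaries and to 547 to 815 FPKM in the follicular ovaries, and 7 of 7 were called higher. The 8 endothelial markers summed to 263 to 335 FPKM against 152 to 183 FPKM, with 7 called higher. The 8 smooth muscle markers summed to 654 to 1180 FPKM against 1380 to 1735 FPKM, with 7 called lower. The summed levels of the other lists overlapped between the phases, and 4 of 8 granulosa markers and 4 of 8 oocyte markers were called lower, 3 of 8 stromal markers higher and 2 lower, and 1 of 7 leukocyte markers higher. Nothing is read from these few calls beside the shares over all genes. The 2 erythrocyte markers in the table reached at most 0.0346 FPKM in every ovary, and no marker in the other lists was listed at 0 in all ovaries. In whole ovaries, fewer cells of a type and less RNA per cell cannot be told apart. The part of cell make-up in the isoform shares was not tested.

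Most genes stayed close to the same isoform make-up in both phases. Over the 4053 genes, the median of the largest share difference of any transcript was 3.94 points and the 95th percentile was 20.5 points. A largest difference of at least 10 points was found in 831 genes and one of at least 20 points in 209. A difference of at least 30 points was reached by 78 genes, but in 63 of them the shares of the 2 phases overlapped.

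**Figure D1:**
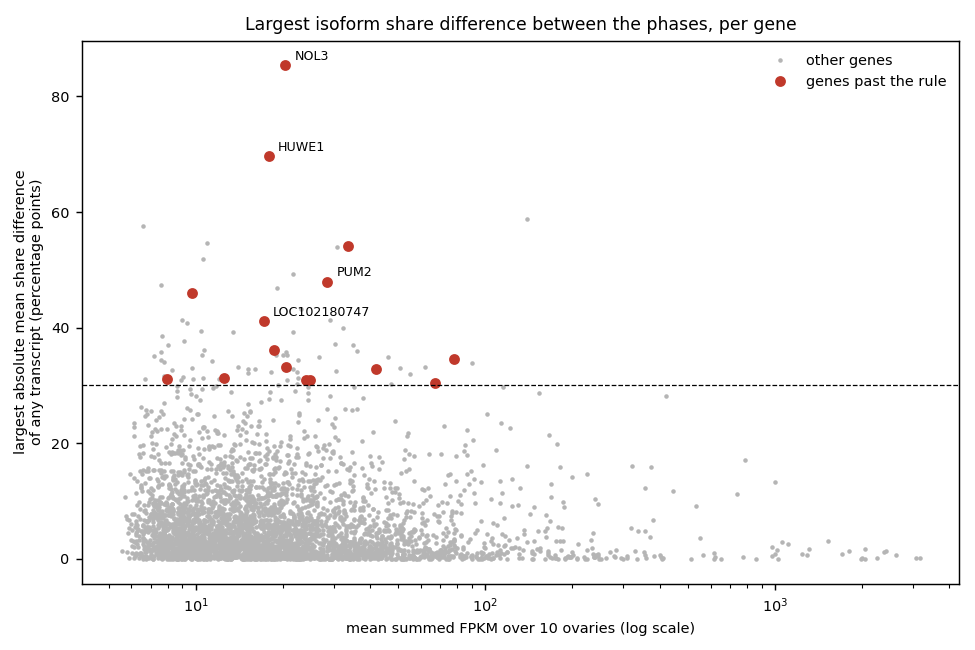
Largest share difference of any transcript of each gene (percentage points) against the level of the gene, for the 4053 genes the rule could choose from, with the 15 genes it kept marked. The dashed line is at 30 points; 78 genes reach it and 63 of these have overlapping shares. VARS is drawn at 46.0 points and FDXR at 30.5 points. Each is the difference of a transcript whose shares overlapped, although the gene was kept for another transcript.

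The 15 genes held 94 transcripts, of which 20 passed the rule, 12 with the higher and 8 with the lower share in the luteal phase. In 5 genes, among them NOL3, ALPL, CACNA2D1 and HINT2, 2 transcripts passed, and in the other 10 genes 1 passed. The transcript with the highest mean share differed between the phases in 11 genes and was the same in 4, namely ALPL, MTUS1, BMPR1B and FDXR. The genes had a median of 6 transcripts, from 2 to 11, against a median of 3 over all genes the rule could choose from. A gene with more transcripts has more chances to pass. Of the 94 transcripts, 28 were listed at 0 in at least 1 ovary and 1 was listed at 0 in all 10. A 0 in an FPKM file can be a failed estimate, so single values are given for those of them described below. Leaving out 1 ovary changed the number of genes to between 17 and 29, and 11 to 15 of the 15 genes were still among them. By construction, fewer ovaries overlap less often, and the rises past 1.5 times came without luteal replicate 3 (29 genes), luteal replicate 4 (24), follicular replicate 1 (24), follicular replicate 2 (25), follicular replicate 3 (23) and follicular replicate 5 (23).

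**Figure D2:**
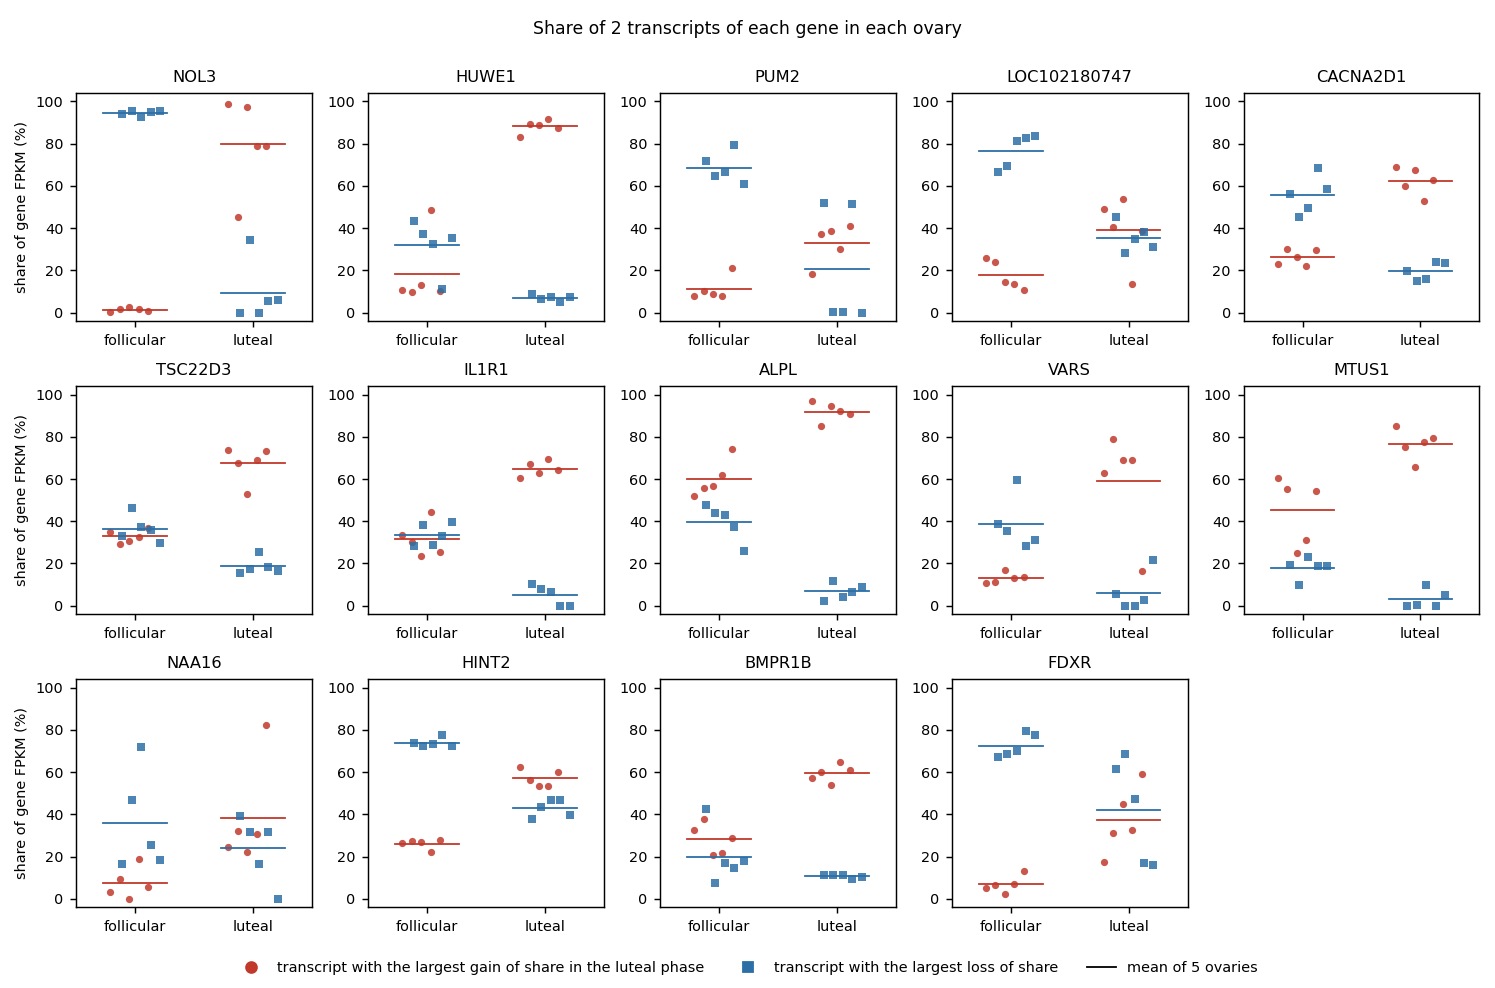
Share (percent of the gene's summed FPKM) in each of the 5 follicular and 5 luteal ovaries of the transcript with the largest gain and the transcript with the largest loss of share in 14 of the 15 genes. Horizontal lines are means of 5 ovaries. Single ovaries stand apart in several panels, such as luteal replicate 2 in NOL3 (34.6% for the losing transcript) and follicular replicate 4 in HUWE1 (48.6% for the gaining transcript).

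Among genes that serve steroid synthesis and mitochondria, FDXR and HINT2 were kept. FDXR encodes ferredoxin reductase, which passes electrons from NADPH through ferredoxin to the mitochondrial cytochromes P450, among them the enzyme that cleaves the cholesterol side chain. It was the 1 gene kept of 20 steroid and sterol genes that could be chosen, beside 0.370% of all genes, and nothing is read from this single gene. The share of XM_018063854.1 ran from 17.5 to 59.3% in the luteal ovaries and from 2.28 to 13.2% in the follicular ovaries. Its mean was 37.2% ± 15.7 against 6.81% ± 4.04 (SD, n = 5 and 5), a gain of 30.4 points with a gap of 4.27 points between the closest ovaries. The FPKM of this transcript was 36.6 ± 14.9 against 2.21 ± 1.12, 16.6 times as high and without overlap. The most abundant FDXR transcript on average in both phases was XM_018063855.1. Its share was 61.6, 68.6, 47.2, 17.1 and 15.8% in luteal replicates 1 to 5 and 67.4 to 79.5% in the follicular ovaries, so the luteal ovaries differed widely among themselves and replicate 2 overlapped. A further transcript, XM_018063851.1, held 19.7, 0, 6.45, 50.2 and 24.9% in the luteal ovaries, which again had no common make-up. Summed FDXR was 102 ± 21.7 FPKM in the luteal and 32.6 ± 7.20 FPKM in the follicular ovaries, 3.12 times as high and without overlap.

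HINT2 encodes a mitochondrial hydrolase of the histidine triad family and has 2 transcripts, so 1 share mirrors the other. XM_018052156.1 held 37.7 to 46.8% in the luteal and 72.2 to 77.8% in the follicular ovaries, and its mean fell by 31.0 points from 73.9% ± 2.26 to 42.9% ± 4.05. In FPKM the same transcript overlapped between the phases, at 14.3 ± 2.07 against 11.98 ± 1.39. The partner XM_018052155.1 stood at 19.1 ± 2.78 against 4.26 ± 0.789 FPKM, 4.49 times as high and without overlap. The share of the first transcript was thus lower in the luteal phase while its own mean level was not.

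Receptors and other membrane proteins gave BMPR1B, IL1R1, CACNA2D1 and ALPL. BMPR1B, a type I receptor for bone morphogenetic proteins known for its role in ovulation rate in sheep, was the 1 gene kept of 48 hormone receptor and ligand genes that could be chosen, beside the same 0.370% of all genes, and again nothing is read from it. It had 11 transcripts, the most of the 15 genes. XM_013964506.2 had the highest mean share in both phases, although other transcripts led in follicular replicates 1 and 4. XM_013964506.2 held 53.7 to 64.8% in the luteal ovaries and 21.0 to 37.7% in the follicular ovaries. The mean share was 59.4% ± 4.16 against 28.4% ± 7.08, a gain of 31.0 points. Its FPKM was 17.7 ± 1.61 against 5.20 ± 1.61, 3.40 times as high and without overlap. Transcripts with a mean share of at least 5% numbered 4 in the luteal and 7 in the follicular phase. Summed BMPR1B was 29.9 ± 2.04 against 18.1 ± 1.35 FPKM, also without overlap.

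IL1R1 encodes the signalling receptor for interleukin-1. The share of XM_005686294.3 was 60.5, 67.3, 62.6, 69.3 and 64.2% in luteal replicates 1 to 5 and 33.7, 30.3, 23.7, 44.3 and 25.5% in follicular replicates 1 to 5. Every luteal share lay above every follicular share, and the mean gain was 33.3 points. Its FPKM was 17.0 ± 1.65 against 4.54 ± 1.85. The share lost lay mainly in XM_005686296.3, which held 10.3, 8.10, 6.54, 0.0547 and 0.0857% in the luteal and 28.3, 38.1, 28.6, 33.2 and 39.7% in the follicular ovaries. That difference of -28.6 points did not overlap either, but it fell short of 30 points. Summed IL1R1 overlapped, because follicular replicate 2 reached 24.4 FPKM against 10.5 to 13.3 FPKM in the other follicular ovaries and 24.4 to 28.2 FPKM in the luteal ovaries.

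CACNA2D1 encodes the alpha-2/delta-1 auxiliary subunit of voltage-gated calcium channels, and 2 of its 6 transcripts changed places. The share of XM_018047284.1 was 68.8, 60.2, 67.5, 52.9 and 62.8% in the luteal and 23.0, 30.04, 26.4, 22.0 and 29.6% in the follicular ovaries. The share of XM_018047283.1 was 19.7, 15.01, 15.7, 24.1 and 23.6% in the luteal and 56.1, 45.2, 49.7, 68.6 and 58.7% in the follicular ovaries. The leading transcript of one phase was the minor one of the other in all 10 ovaries, with differences of 36.2 and -36.0 points. The FPKM of the gaining transcript was 15.3 ± 2.34 against 3.32 ± 0.379, 4.62 times as high and without overlap. The losing transcript overlapped in FPKM, at 4.93 ± 1.65 against 7.17 ± 1.71. Summed CACNA2D1 was 1.93 times as high in the luteal phase, without overlap.

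ALPL encodes tissue-nonspecific alkaline phosphatase, and its summed FPKM differed by the largest factor of the 15 genes, 67.7 ± 9.51 in the luteal against 16.5 ± 5.12 in the follicular ovaries, or 4.12 times. XM_018055220.1 held 2.30, 11.8, 3.95, 6.68 and 9.08% in the luteal and 47.9, 44.0, 43.1, 37.4 and 25.9% in the follicular ovaries. XM_018055210.1 held 96.8, 84.96, 94.7, 92.0 and 90.7% in the luteal and 51.8, 55.8, 56.9, 62.0 and 74.0% in the follicular ovaries. The luteal ovaries therefore carried mostly a single ALPL isoform, while the follicular ovaries carried a mixture of both. The dominant isoform stood at 62.0 ± 7.81 against 9.59 ± 2.14 FPKM, 6.47 times as high and without overlap. The other overlapped in FPKM, at 4.77 ± 2.98 against 6.82 ± 3.11.

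Genes of cell survival, hormone response and the cytoskeleton gave NOL3, TSC22D3 and MTUS1. NOL3 encodes ARC, an apoptosis repressor with a caspase recruitment domain, and had the largest share difference of all 15 genes. XM_018062113.1 held 93.8, 95.5, 92.9, 95.1 and 95.3% in the follicular ovaries. In luteal replicates 1 to 5 it held 0, 34.6, 0, 5.27 and 5.87%, so that the mean difference was -85.4 points. XM_018062115.1 held 98.6, 45.5, 97.4, 79.0 and 79.0% in the luteal and 0.427, 1.57, 2.85, 1.52 and 0.655% in the follicular ovaries. NOL3 RNA was thus almost all of one isoform in the follicular ovaries and mostly of another in the luteal ovaries. Luteal replicate 2 stood apart with a mixture of all 3 transcripts, and without it the difference of XM_018062113.1 was -91.7 points. The FPKM of XM_018062115.1 was 31.7, 14.5, 23.7, 24.6 and 20.1 in the luteal ovaries against a mean of 0.162 ± 0.113 in the follicular ovaries. The FPKM of XM_018062113.1 was 0, 10.99, 0, 1.64 and 1.49 against 13.3, 9.02, 11.2, 10.9 and 11.4, and replicate 2 made these groups overlap. Summed NOL3 was 29.0 ± 3.76 against 11.8 ± 1.68 FPKM, without overlap.

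TSC22D3 encodes GILZ, a leucine zipper protein induced by glucocorticoids. XM_018045122.1 held 73.9, 67.8, 53.1, 69.1 and 73.3% in the luteal and 34.9, 29.2, 30.6, 32.8 and 37.0% in the follicular ovaries. The mean gain was 34.6 points, and luteal replicate 3 was the lowest luteal ovary but still 16.1 points above the highest follicular one. The FPKM of this transcript was 63.5 ± 14.6 against 20.5 ± 2.24, 3.09 times as high and without overlap. The loss was spread over XM_018045120.1, from a mean of 36.3 to 18.6%, and XM_018045124.1, from 29.9 to 13.0%. Follicular ovaries therefore held similar mean shares of 3 isoforms, and luteal ovaries mostly 1. Summed TSC22D3 was 93.0 ± 11.4 against 63.0 ± 9.09 FPKM.

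MTUS1 encodes a microtubule-associated protein described as a tumour suppressor. XM_018041916.1 had the highest mean share in both phases, although XM_018041913.1 led in follicular replicate 3 with 31.0%. XM_018041916.1 held 84.9, 75.1, 65.5, 77.4 and 79.7% in the luteal and 60.6, 55.2, 25.0, 31.0 and 54.2% in the follicular ovaries. The lowest luteal share lay 4.89 points above the highest follicular share, and the mean gain of 31.3 points fell to 26.2 points without follicular replicate 3. Its FPKM was 10.6 ± 1.27 against 4.63 ± 0.612, without overlap. Summed MTUS1 overlapped, at 13.9 ± 1.36 against 11.1 ± 3.03 FPKM.

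Genes that act on RNA, protein synthesis and protein turnover gave PUM2, VARS, NAA16 and HUWE1. PUM2 encodes a Pumilio protein that binds messenger RNA and represses its translation. XM_018055596.1 held 71.6, 64.7, 66.8, 79.3 and 60.7% in the follicular ovaries. In the luteal ovaries it held 51.7, 0.466, 0.137, 51.3 and 0.0188%. Luteal replicates 1 and 4 thus kept the transcript as their main isoform and the other 3 luteal ovaries had almost none of it, and the mean difference of -47.9 points averages these unlike ovaries. The FPKM was 11.6, 0.103, 0.0407, 12.4 and 0.00468 against 22.2, 18.4, 22.5, 25.9 and 21.9. XM_018055599.1 took the largest gain, 33.0% ± 9.12 against 11.1% ± 5.62, but its shares overlapped. Summed PUM2 was 24.7 ± 3.09 against 32.3 ± 2.84 FPKM, with overlap.

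VARS encodes valyl-tRNA synthetase, which loads valine onto its transfer RNA. XM_018038629.1 held 5.41, 0, 0, 2.80 and 21.8% in the luteal and 38.7, 35.5, 59.6, 28.1 and 31.2% in the follicular ovaries, a mean difference of -32.6 points. XM_018038628.1 held 63.0, 78.9, 68.8, 69.1 and 16.3% in the luteal and 10.8, 11.1, 17.1, 13.2 and 13.6% in the follicular ovaries. The second difference was the larger, at 46.0 points, but luteal replicate 5 overlapped with the follicular ovaries. Luteal replicate 5 was also the ovary nearest to the follicular ones for the first transcript. Summed VARS was 8.88 ± 1.39 against 10.6 ± 1.95 FPKM, with overlap.

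NAA16 encodes an auxiliary subunit of an amino-terminal protein acetyltransferase and had the lowest summed level of the 15 genes, 6.60 ± 0.541 FPKM in the luteal and 9.33 ± 1.55 FPKM in the follicular ovaries. XM_018056797.1 held 24.5, 32.3, 22.3, 30.8 and 82.5% in the luteal and 2.99, 9.33, 0, 18.9 and 5.38% in the follicular ovaries. Luteal replicate 5 carried much of the mean difference of 31.1 points, which was 20.1 points without it. The gap between the closest ovaries was 3.38 points.

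HUWE1 encodes a large HECT-type E3 ubiquitin ligase and had 10 transcripts. XM_018043737.1 held 83.0, 89.4, 88.8, 91.8 and 87.5% in the luteal and 10.9, 9.79, 12.9, 48.6 and 10.2% in the follicular ovaries. It was the one transcript with a higher mean share in the luteal phase, by 69.7 points, and the other 9 were lower. Follicular replicate 4 lay between the 2 sets of ovaries, and without it the difference was 77.2 points. Among those that lost share, XM_018043730.1 had 6.95% ± 1.45 against 31.8% ± 12.2. XM_018043731.1 had a mean of 1.01% against 13.8%. The FPKM of XM_018043737.1 was 14.3 ± 0.756 against 3.55 ± 3.10, 4.02 times as high (6.59 times without follicular replicate 4), while summed HUWE1 went the other way with 16.2 ± 1.00 luteal and 19.5 ± 1.01 follicular FPKM. Neither pair overlapped, so the leading luteal isoform and the gene as a whole differed in opposite directions.

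LOC102180747 has no gene name, and its nearest protein-coding neighbour in RefSeq's goat annotation (ARS1.2) is ANKRD17. XM_018049562.1 held 45.3, 28.2, 35.1, 38.2 and 30.9% in the luteal and 66.5, 69.4, 81.2, 82.5 and 83.7% in the follicular ovaries, a mean difference of -41.1 points with a gap of 21.1 points. Its FPKM was 5.26 ± 2.17 against 15.3 ± 2.50, without overlap. The gains of the other 2 transcripts were uneven: XM_018049561.1 ran from 13.6 to 53.9% and XM_013964712.2 from 5.73 to 48.2% over the luteal ovaries, and both overlapped with the follicular ovaries.

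**Figure D3:**
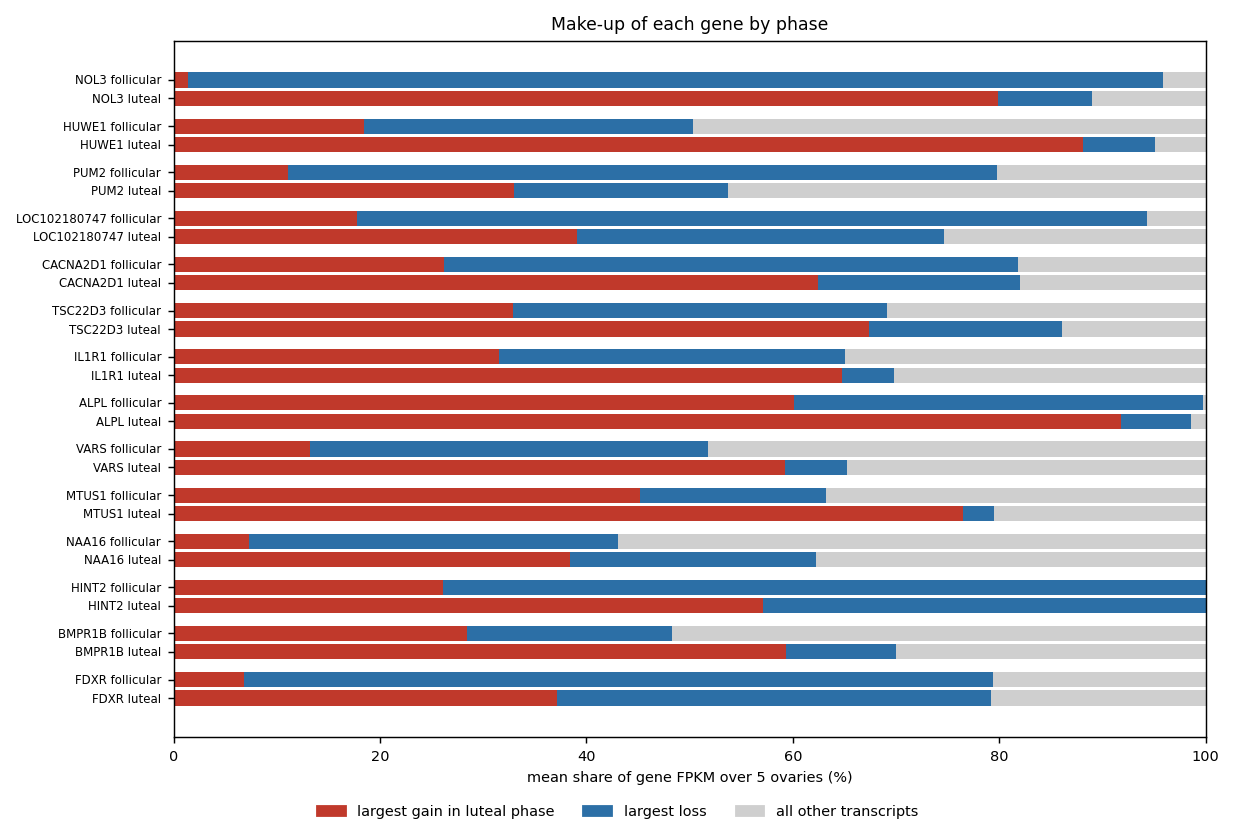
Mean share (percent of the gene's summed FPKM, 5 ovaries per phase) of the transcript with the largest gain in the luteal phase (red), the one with the largest loss (blue) and all other transcripts together (grey) in 14 of the 15 genes, as stacked bars by phase. NOL3 goes from 94.5% of 1 transcript in the follicular phase to 79.9% of another in the luteal phase, and ALPL keeps the same leading transcript at 60.1% and 91.8%.

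A share can differ because one transcript gains, another loses, or both. The shares that chose the genes were built from the same FPKM values. The counts below were not made over the other genes, so they are described and nothing is read from them. In FPKM, the transcript with the largest gain of share was higher in the luteal phase without overlap in 11 of the 15 genes. The transcript with the largest loss was lower without overlap in 6 genes, among them HUWE1, PUM2, LOC102180747, IL1R1 and VARS, and overlapped in the other 9. Both held in 2 genes, HUWE1 and IL1R1. Only the gain held in 9 (NOL3, CACNA2D1, TSC22D3, ALPL, MTUS1, NAA16, HINT2, BMPR1B and FDXR) and only the loss in 4, among them PUM2, LOC102180747 and VARS. The mean summed FPKM was lower in the luteal phase in each of these 4 genes and higher in 8 of the 9, but not in NAA16. Each transcript is part of its gene's sum, so this split is largely built in and nothing is read from it. Transcripts with a mean share of at least 5% were fewer in the luteal phase in 5 genes, more in 2 and equal in number in 8.

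**Figure D4:**
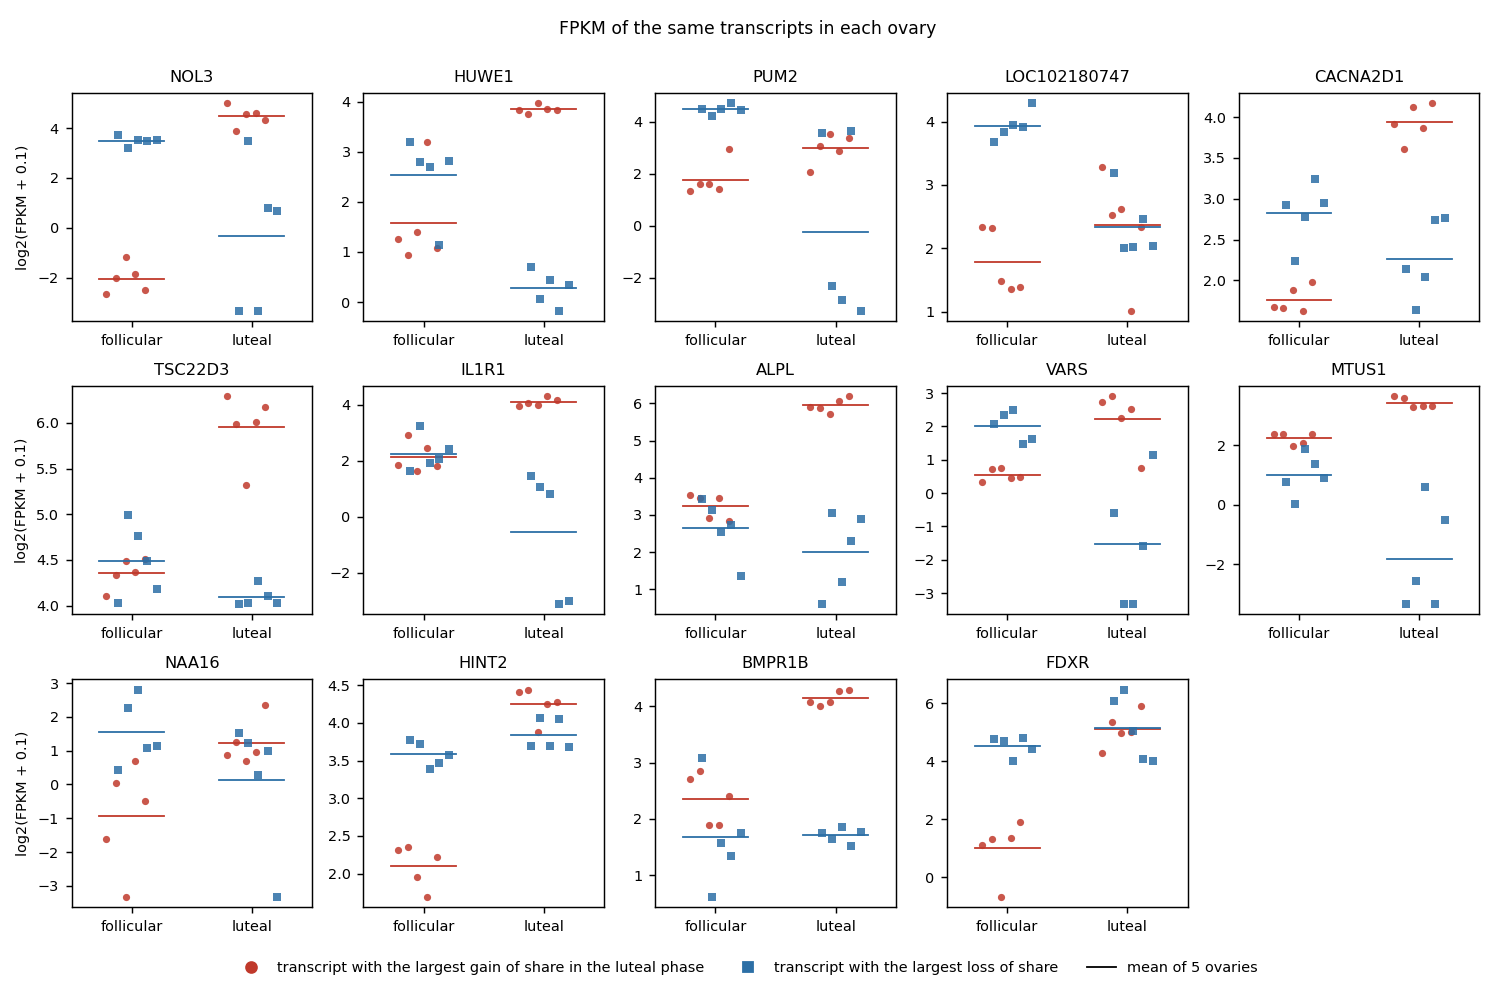
Level, as log2(FPKM + 0.1), in each of the 5 follicular and 5 luteal ovaries of the transcripts with the largest gain and the largest loss of share in 14 of the 15 genes. Horizontal lines are means of 5 ovaries. NOL3 and FDXR show the gaining transcript higher in every luteal than in every follicular ovary, while the losing one overlaps.

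Summed over transcripts, the 15 genes had higher mean FPKM in the luteal phase in 9 and lower in 6, without overlap in 7 and 3 of them. The share of all genes without overlap was not counted. In limma's test of log2(FPKM + 0.1) over 15359 genes, 13 of the 15 passed an adjusted p of 0.05, 8 higher and 5 lower, and MTUS1 and VARS did not. Over all genes tested, 43.7% passed, 15.9% higher and 27.8% lower. The 15 genes were chosen on the same contrast of the same ovaries, so nothing is read from these counts.

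The threshold divides a continuous range. Just inside it were HINT2 (-31.0 points), BMPR1B (31.0 points) and FDXR (30.4 points). Just outside, without overlap, were ANKRD28 (76.5% luteal against 47.2% follicular, 29.3 points), ATP2C1 (22.7% against 51.6%, -28.8 points) and ZNF114 (56.8% against 85.02%, -28.2 points). The largest differences among genes left out for overlap were those of CDC42 (0.834% against 59.6%), SMUG1 (82.4% against 24.8%) and FUBP3 (94.7% against 40.1%). In CDC42 the follicular shares alone ran from 0.683 to 99.0%, a range wider than the difference between the phase means.

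Genes whose products choose between splice forms were examined as a list that makes no use of isoform shares. Of 106 such regulators, 95 were tested on their summed FPKM in the same limma fit. In the luteal phase 58 fell, 5 rose and 32 did not pass the adjusted p of 0.05, so that 61.1% were called lower and 5.26% higher, beside 27.8% and 15.9% of all genes. The median log2 fold change was -0.31 over the list and -0.14 over all genes, and 84 of the 95 had a lower luteal mean. With every ovary shifted to a common median over the genes, 43 passed, 37 lower and 6 higher. That was 45.3% of the list beside 38.8% of all genes, against 66.3% beside 43.7% in the unshifted fit. The calls over all genes were not split by direction in the shifted fit. Whether the excess of lower calls in the list remained there cannot be told. The share rule could choose from 65 of the regulators and kept none, beside the 0.370% of all genes that it kept, so nothing is read from that count.

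The 4 regulators with the smallest p in each direction were as follows. NONO, a paraspeckle protein, fell from 209 ± 3.36 to 141 ± 5.33 FPKM (log2 fold change -0.57, SE 0.06, limma adjusted p = 2.28e-05). HNRNPA0 fell from 21.0 ± 2.26 to 12.2 ± 0.754 FPKM (log2 fold change -0.77, limma adjusted p = 4.8e-05). RBMX, an X-linked hnRNP, fell from 91.6 ± 4.40 to 59.0 ± 5.01 FPKM (log2 fold change -0.64, limma adjusted p = 5.2e-05). HNRNPA1, an hnRNP that represses splice sites, fell from 1268 ± 121 to 683 ± 94.8 FPKM (log2 fold change -0.90, limma adjusted p = 0.000139). HNRNPA1 has many near-identical processed copies in mammalian genomes, so its level is uncertain.

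Among those that rose, MBNL1 and MBNL2 are muscleblind proteins, which drive the switch from fetal to adult splice forms. MBNL1 rose from 63.0 ± 3.29 to 79.9 ± 3.86 FPKM (log2 fold change 0.34, SE 0.06, limma adjusted p = 0.00107). MBNL2 rose from 31.6 ± 3.74 to 42.3 ± 3.89 FPKM (log2 fold change 0.42, SE 0.09, limma adjusted p = 0.00444). MBNL3 of the same family, named here after its values were seen, had a lower luteal mean and was not called. It had 3.05 ± 1.28 luteal against 4.29 ± 0.975 follicular FPKM (log2 fold change -0.54, limma adjusted p = 0.131). RBM47, an RNA-binding protein of epithelia, rose from 1.98 ± 0.356 to 4.48 ± 1.21 FPKM (log2 fold change 1.11, SE 0.20, limma adjusted p = 0.00128). RBM20, a splicing regulator best known from heart muscle, rose from 0.181 ± 0.0527 to 0.779 ± 0.282 FPKM (log2 fold change 1.61, SE 0.23, limma adjusted p = 0.000326), which is a low level in both phases. On this scale its fold change depended on the pseudocount and was 0.58 with a pseudocount of 1 and 2.03 with 0.01. In the 8 regulators with the smallest p, the 5 luteal and 5 follicular ovaries did not overlap. These were picked by p in the same ovaries, and many other regulators did not overlap either, so nothing is read from this. The fifth that rose, HNRNPH2, named here after its values were seen, had 49.2 ± 6.59 against 38.2 ± 2.14 FPKM (limma adjusted p = 0.0101). The part of these regulators in the isoform shares was not tested.

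**Figure D5:**
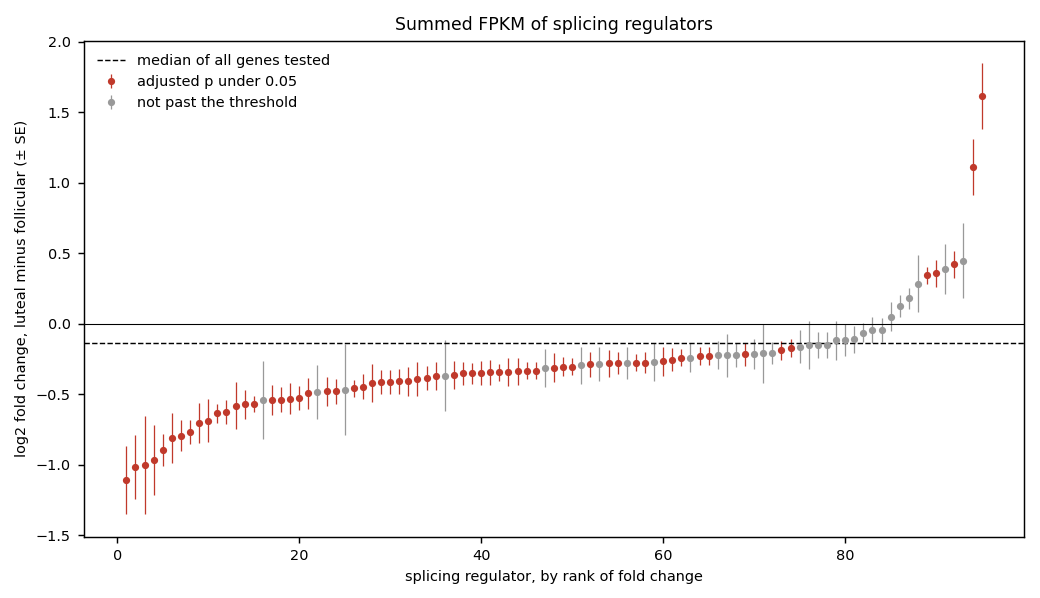
Log2 fold change of summed FPKM, luteal minus follicular, with its SE, for each tested splicing regulator in rank order; red points passed an adjusted p of 0.05 and the dashed line is the median of all genes tested. The median is -0.31 for the 95 regulators and -0.14 for all 15359 genes; 58 regulators were called lower and 5 higher.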

How the data were processed

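Total RNA of 5 luteal and 5 follicular ovaries had been depleted of ribosomal RNA and sequenced. According to the methods of the study, HISAT2 placed the reads on the genome, StringTie built the transcripts and the authors took FPKM from Cuffdiff, which divides reads among overlapping isoforms by a model. The deposited transcript table holds one FPKM per annotated transcript and ovary. The genome build is not given in the sources used here, and 2 other deposited tables, which repeat rows of it, were not used. Read counts, transcript sequences and exon structures were not analysed here.

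FPKM was summed by gene symbol over protein-coding transcripts, and shares were computed per ovary. Genes reaching 0.1 FPKM in 5 or more ovaries entered the fit, on log2(FPKM + 0.1) and with limma 3.58.1 (lmFit, eBayes with trend) in R 4.3.3, two-sided, with Benjamini-Hochberg adjustment over all genes tested and a threshold of 0.05. Shares used Python 3.11.15 with pandas 2.3.3 and numpy 2.4.6, and plots matplotlib 3.10.9. Fold changes on this scale understate those of low genes. Scripts were checked on simulated data.

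Named were all genes the rule kept but 1, which is not reported here (all shares for 11 with the largest differences), 3 genes just inside and 3 just outside the threshold, the 3 largest with overlap, and the 4 regulators with the smallest p in each direction. The genes and lists were chosen with earlier results of these data known. Of the other lists, immune and blood (71 genes that could be chosen) had IL1R1 among its genes. The lists for other splicing factors, contractile proteins, extracellular matrix, translation, mitochondria, membrane transport, ubiquitin, chaperones, vesicle traffic and chromatin are lists of symbols and symbol patterns, and none of the 15 is on them. The roles by which the report orders the genes are general background and not these lists. Alternatives changed the thresholds, the summary of the shares, the handling of zeros, the pseudocount, the filter, the scaling, a replicate block and the ovaries included.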

Additional observations from a re-analysis of the deposited data

Results flagged for a closer look

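In groups of 5 ovaries, 10 of 80 sets of values (a share or a summed FPKM of a named gene in 1 phase) had 1 ovary far from the other 4. Chance flags about 1 in 20 such groups, or 4 of 80, and the shares of 1 gene are not independent of each other.

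Among luteal ovaries, replicate 2 had 34.6% of NOL3 as XM_018062113.1 against 0 to 5.87% in the others. Luteal replicate 5 had 21.8% of VARS as XM_018038629.1 against 0 to 5.41%, and 82.5% of NAA16 as XM_018056797.1 against 22.3 to 32.3%. Luteal replicate 2 also had the highest MBNL1, at 86.7 FPKM against 77.3 to 79.5 FPKM.

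Among follicular ovaries, replicate 4 had 48.6% of HUWE1 as XM_018043737.1 against 9.79 to 12.9%. The same ovary had 77.8% of HINT2 as XM_018052156.1 against 72.2 to 73.7%, and so 22.2% as XM_018052155.1 against 26.3 to 27.8%. Follicular replicate 2 had summed levels of 10.2 FPKM for CACNA2D1 against 13.0 to 13.6 FPKM, 24.4 FPKM for IL1R1 against 10.5 to 13.3 FPKM, and 1476 FPKM for HNRNPA1 against 1172 to 1250 FPKM.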

How the results depend on the processing

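The count of 15 genes depended on its thresholds. It was 34 with a minimum summed FPKM of 1, 36 with a minimum difference of 20 points, 5 with 40 points and 78 with overlap allowed. Leaving out 1 ovary gave 17 (without follicular replicate 4) to 29 (without luteal replicate 3). Without luteal replicates 2 and 4, chosen after seeing the data, it was 31. The other alternatives gave 10 to 16: 10 at a minimum summed FPKM of 10 (ALPL, MTUS1, NAA16, NOL3 and VARS lost), 16 with medians (11 of the 15 genes kept), 14 with 0.1 added to every transcript (NAA16 lost), and 13 with transcripts listed at 0 left out (MTUS1, NAA16, NOL3 and VARS lost, ATP2C1 and SMIM15 gained). With 1 ovary left out, the lead difference went under 30 points at its lowest in NAA16 (20.1) and FDXR (24.9) without luteal replicate 5, in MTUS1 (26.2), VARS (-27.4) and BMPR1B (29.1) without follicular replicate 3, and in HINT2 (-29.7) without luteal replicate 1. No share difference reversed, and that of CDC42 moved to -97.7 points with medians. Of the 15 genes, 13 passed limma's test on summed FPKM under every alternative but 1, which gave 14. The count of splicing regulators was 43 to 69 over the alternatives. The share of all genes is given beside it only for the main, shifted and block fits, so nothing is read from this range. The 8 regulators named for the smallest p kept direction and call. For RBM20 the log2 fold change ran from 0.58 (pseudocount 1) to 2.03 (0.01).

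The labels give both phases the numbers 1 to 5. With the replicate block, 67 splicing regulators passed (6 higher, 61 lower), or 70.5% beside 45.7% of all genes, and 13 of the 15 genes. Deviations of equal-numbered ovaries correlated at 0.0258 to 0.199, and 2 of 5 luteal ovaries matched best with their own number, so the numbers were not taken as pairs.

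FPKM without counts gives no depth, and shares of overlapping transcripts are model estimates with an unknown error per ovary.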
